A study of Homo sapiens with 5 samples.

Results

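VGF and 7 genes of the neurosecretory granule were followed through the transcriptome of the human cell line TOV21G, derived from a clear cell carcinoma of the ovary, after interference with the deacetylase HDAC6. The members are the rows of the deposited gene table with the symbols VGF, CHGA, CHGB, SCG2, PCSK1, CPE, PCSK1N and SCG5, and all 8 were found among 28442 gene rows. VGF was chosen because it was high in these same libraries, so its values are a description and carry no test. The other genes were listed to see whether they follow VGF.

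There were 5 libraries, 1 per treatment. The shControl and shHDAC6 libraries came from cells infected with a control hairpin or with a hairpin against HDAC6. The labels name 1 µg/ml puromycin for selecting infected cells, and 2 hairpins against HDAC6 without saying which one this library holds. The vehicle, ACY1215 and CAY10603 libraries came from cells given the drug solvent or one of 2 small-molecule HDAC6 inhibitors, ACY1215 (ricolinostat) and CAY10603. For doses and treatment times the sources used here give no value. The study groups shControl and vehicle as controls and the other libraries as repressed HDAC6. Nothing says that a treatment was repeated in separate cultures, so a difference between 2 libraries has no replicate check. Culture medium and serum were the same for all libraries per the labels.

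Neuroendocrine cells and neurons store peptides in dense-core granules and release them on a signal. Granins (CHGA, CHGB, SCG2 and VGF) are acidic proteins that aggregate in the trans-Golgi network and help to form the granule. Inside it the convertase PCSK1 cuts prohormones at pairs of basic residues, and carboxypeptidase E (CPE) trims the basic residues left behind. PCSK1N (proSAAS) inhibits PCSK1, and SCG5 (7B2) is the chaperone of the related convertase PCSK2. VGF was first known as a transcript induced by nerve growth factor and is also induced through cyclic AMP and the factor CREB. CREB binds the cyclic AMP response element (CRE) TGACGTCA. Many granule genes are kept silent outside neural tissue by the repressor REST.

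Promoter sequence is shown first for VGF, PCSK1 and PCSK1N, the members with the largest differences between libraries above 1 CPM. The shorter site of CHGA is shown because it holds the same element, and its transcript was nearly absent. RefSeq (GRCh38.p14) had promoters, 250 bases before to 50 after a gene's start, for 6 of the 8 members, and not for SCG2 or CHGB. The submitters' notes name the build hg19 for the expression data, and no value was placed by coordinates. Stretches run 5′ to 3′ on the gene's strand, from -160 to -41 relative to the start (for CHGA from -64 to -37), with the CRE TGACGTCA and the E-box CACGTG in capitals. The VGF stretch lies at chr7:101165610-101165729 (minus strand), the PCSK1 one at chr5:96433289-96433408 (minus), the PCSK1N one at chrX:48835651-48835770 (minus) and the CHGA one at chr14:92923086-92923113 (plus). The first 3 overlap no exon annotated by GENCODE, and the CHGA stretch overlaps 1 annotated exon.
VGF: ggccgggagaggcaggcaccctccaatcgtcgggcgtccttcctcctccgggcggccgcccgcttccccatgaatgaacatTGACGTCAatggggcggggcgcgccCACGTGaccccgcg
PCSK1: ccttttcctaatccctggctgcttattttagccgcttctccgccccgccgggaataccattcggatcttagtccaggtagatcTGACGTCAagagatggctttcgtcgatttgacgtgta
PCSK1N: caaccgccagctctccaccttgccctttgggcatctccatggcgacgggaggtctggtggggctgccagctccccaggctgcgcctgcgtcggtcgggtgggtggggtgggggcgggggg
CHGA: gcggcaccgcTGACGTCAtttccggggt

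The CRE began at -79 in VGF, at -77 in PCSK1 and at -54 in CHGA, counted from the RefSeq start. For PCSK1 this is 1 of 2 listed promoters, and the other held no CRE. Thus 3 of 6 members with a promoter held it in at least 1 listed promoter, and 1.85% of 35116 promoters in the table held it. The units differ here and for the motifs below, since members count by gene and the background by single promoter. By gene, 396 of 10165 with a promoter and a mean of at least 1 CPM held a CRE. Its half-site TGACG, searched like the other motifs on both strands and part of the full CRE, was in 5 of 6 members (PCSK1N had none) and in 24.6% of all promoters. The E-box CACGTG was in VGF alone of the 6, at -54, and in 7.26% of all promoters. The AP-1 site TGANTCA was in PCSK1N alone, at -246, and in 7.71% of all. The left part of the REST element, TTCAGCACC, was in none of the 6 windows and was in 0.376% of all. These matches describe letters in the windows and do not show binding.

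Depth and identity of the libraries were checked before the levels were read. Total counts lay between 43498805 (vehicle) and 57442767 (shControl). The HDAC6 transcript had 1539 counts in the library labelled shHDAC6 against 2765 in shControl, a log2 fold of -0.72 (95% counting interval -0.81 to -0.63). A library without replicates is given with its counts, its CPM (its counts relative to the library total, scaled by the TMM method to make libraries comparable) and an exact Poisson interval at a confidence level of 95%. These intervals cover counting error only, and reads without molecular identifiers are not independent molecules. Clear cell carcinoma markers were present for PAX8 (103 to 144 CPM), KRT8 and KRT18, while NAPSA, WFDC2 and EMX2 stayed below 0.5 CPM in all 5 libraries.

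VGF was highest in the ACY1215 library. It had 78 counts in shControl and 115 in shHDAC6, then 120 in vehicle, 1540 with ACY1215 and 238 with CAY10603. On the CPM scale it stood at 1.35 in shControl and 2.18 in shHDAC6, then 2.69 in vehicle, 29.5 with ACY1215 and 4.92 with CAY10603. ACY1215 was thus far above the other 4 libraries, whose levels spanned a narrower range. The log2 fold over vehicle was 3.44 (3.19 to 3.74), or 10.8-fold with the prior count of 2 that all folds carry. By the authors' FPKM, which divide by transcript length, VGF stood at 0.57 in shControl and 0.93 in shHDAC6, then 1.16 in vehicle, 11.92 with ACY1215 and 2.06 with CAY10603. The order from low to high was shControl, shHDAC6, vehicle, CAY10603 and ACY1215, and counting error did not separate shHDAC6 from vehicle (interval of the log2 difference -0.08 to 0.68). The vehicle library was itself 0.97 above shControl on the log2 scale (0.57 to 1.42). That gap between the control libraries was larger than the log2 fold of shHDAC6 (0.67, interval 0.26 to 1.12) or CAY10603 (0.86, also above 0 by counting error) over its own control. Set against vehicle, shHDAC6 had a VGF log2 fold of -0.30 (-0.68 to 0.08). Set against shControl, ACY1215 had 4.41 and CAY10603 1.83. In bulk RNA, more cells with a transcript and more transcript per cell cannot be told apart.

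**Figure D1:**
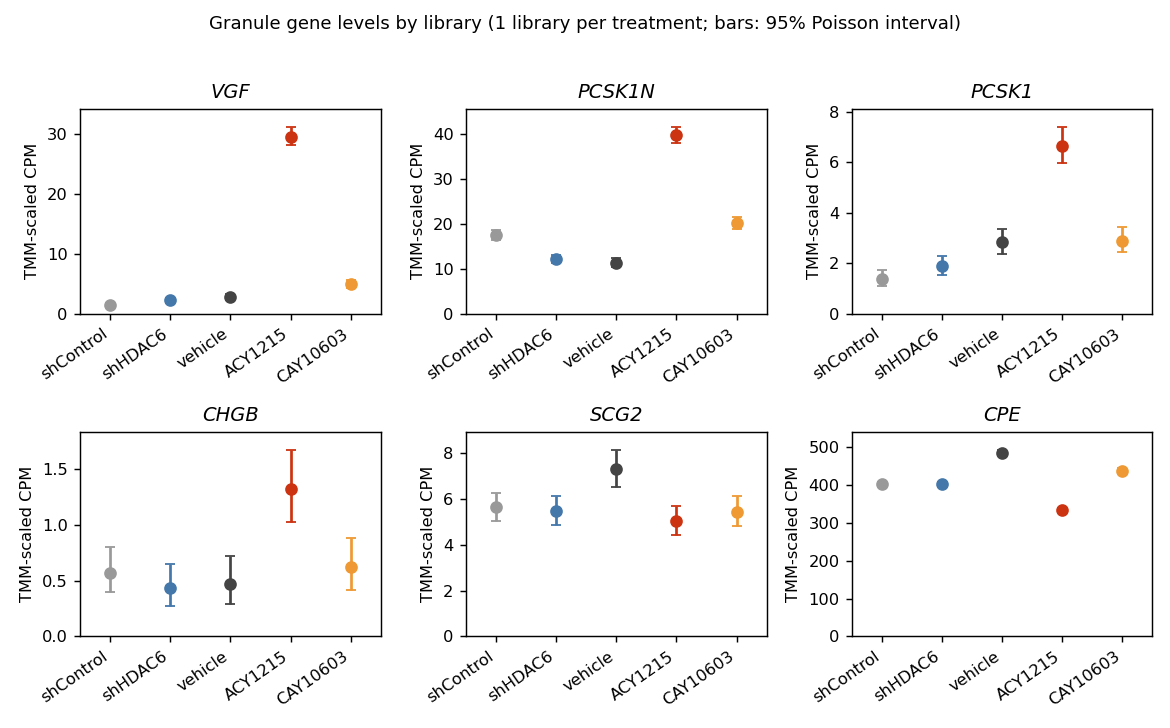
TMM-scaled CPM of 6 granule genes (vertical axes, linear from 0, a scale for each gene) in the 5 libraries (horizontal axes), with points for single libraries and bars for 95% Poisson intervals. VGF, PCSK1N, PCSK1 and CHGB are highest in ACY1215, while SCG2 and CPE are highest in vehicle and lowest in ACY1215.

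The inhibitor of PCSK1, PCSK1N, came next in size in the ACY1215 library among members above 5 CPM. It had 1011 counts in shControl and 642 in shHDAC6, then 504 in vehicle, 2075 with ACY1215 and 976 with CAY10603. Its level in ACY1215 was 39.7 CPM (38.1 to 41.5) against 11.3 CPM (10.3 to 12.3) in vehicle, 3.51-fold higher and a log2 fold of 1.81 (1.68 to 1.96). CAY10603 stood at 20.2 CPM, a log2 fold of 0.84 (0.68 to 1.00) over vehicle. In the shRNA pair the sign was the other way, with shHDAC6 at 12.2 CPM and shControl at 17.5 CPM, a log2 fold of -0.53 (-0.67 to -0.38). The control libraries differed as much, vehicle being lower than shControl by a log2 value of -0.63 (-0.79 to -0.48). Against vehicle the shHDAC6 fold was 0.11 (-0.06 to 0.28), and against shControl those of ACY1215 and CAY10603 were 1.18 and 0.20. ACY1215 was thus above both controls by more than 2-fold, while the other values depended on which control was used.

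PCSK1N and HDAC6 lie close together on the X chromosome in RefSeq order, with ERAS between them. HDAC6 was lower in ACY1215 than in vehicle (log2 fold -0.62), where PCSK1N was higher. ERAS had at most 2 counts in any library. TIMM17B and PQBP1, the next protein-coding genes on the other side of PCSK1N, had log2 folds of -0.22 and -0.28 for ACY1215 against vehicle. None of the 4 was higher in ACY1215 than in vehicle. Beside VGF, the adaptor subunit AP1S1 had a log2 fold of 0.36 in ACY1215. NAT16, on the other side of VGF, had 9 counts in vehicle and 24 in ACY1215.

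The convertase PCSK1 was also high in ACY1215. It had 80 counts in shControl and 99 in shHDAC6, then 126 in vehicle, 347 with ACY1215 and 140 with CAY10603. The ACY1215 level of 6.65 CPM (5.97 to 7.38) compared with 2.82 CPM (2.35 to 3.36) for the solvent, and the log2 fold was 1.22 (0.94 to 1.54). CAY10603 lay next to vehicle at 2.89 CPM, a log2 fold of 0.04 (-0.32 to 0.40). For shHDAC6 the fold over shControl was 0.42, with an interval of -0.00 to 0.88. As for VGF, vehicle was above shControl, here by 1.00 (0.61 to 1.45), or 0.84 by FPKM.

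Among the granins other than VGF, no member reached VGF's fold. CHGB had 33, 23, 21, 69 and 30 counts in shControl, shHDAC6, vehicle, ACY1215 and CAY10603. Its log2 fold in ACY1215 was 1.42 over vehicle (0.77 to 2.27), at levels of 1.32 and 0.47 CPM, and counting error separated none of the other 4 libraries from the next in order of level. By FPKM the CHGB fold was 0.98, just under 2-fold. CHGA had 0 counts in 4 libraries and 2 in CAY10603. A count of 0 allows up to 3 counts, or 0.0575 CPM in ACY1215, so CHGA was not detectable there. Its promoter holds a CRE, and the part of the CRE in the members' levels was not tested.

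SCG2, secretogranin II, was lower in both inhibitor libraries than in vehicle. It had 325 counts in shControl and 289 in shHDAC6, then 326 in vehicle, 263 with ACY1215 and 264 with CAY10603. The log2 folds over vehicle were -0.53 (-0.77 to -0.30) for ACY1215 and -0.42 (-0.66 to -0.18) for CAY10603. Vehicle stood apart, however, at 7.30 CPM, and the other 4 libraries lay between 5.04 and 5.64 CPM, where counting error separated no neighbours. Against shControl the ACY1215 fold of SCG2 was -0.16 (-0.40 to 0.08).

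CPE was by far the most abundant member, with 17403 counts in ACY1215 and between 21218 and 23254 in the other 4 libraries. On the CPM scale it stood at 403 in both hairpin libraries, then 486 in vehicle, 333 with ACY1215 and 439 with CAY10603. ACY1215 was the lowest against either control, with log2 folds of -0.54 (-0.57 to -0.51) over vehicle and -0.28 (-0.30 to -0.25) over shControl. The knockdown pair was level, at -0.00 (-0.03 to 0.03). SCG5 had 4 counts in shControl and 1 in shHDAC6, then 12 in vehicle, 6 with ACY1215 and 2 with CAY10603, too few for a fold. More genes had a count in the drug experiment (21031 to 22189) than in the shRNA libraries (18571 and 18719), and the part this plays in the SCG5 counts was not tested. SCG5 also overlaps a read-through transcript from ARHGAP11A in RefSeq, so its reads may be split.

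**Figure D2:**
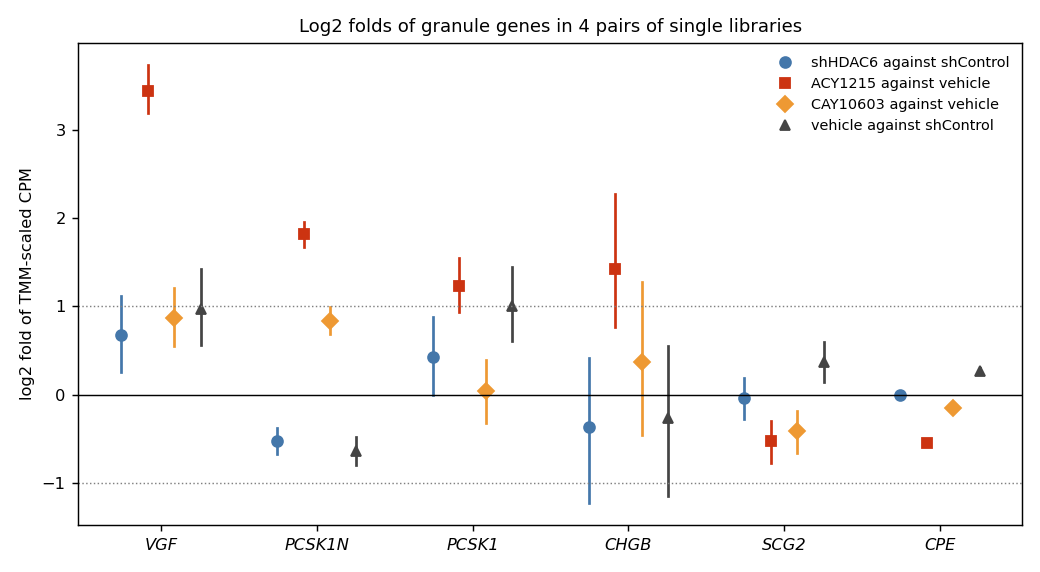
Log2 folds of TMM-scaled CPM (vertical axis) for 6 granule genes (horizontal axis) in 4 pairs of single libraries, with lines for exact binomial counting intervals and dotted lines at 2-fold. The ACY1215 squares of VGF, PCSK1N, PCSK1 and CHGB lie above 1, and the triangles of vehicle against shControl show gaps between controls of 0.97 for VGF and 1.00 for PCSK1.

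Over the 8 members, 4 were at least 2-fold higher in ACY1215 than in vehicle (VGF, PCSK1N, PCSK1 and CHGB), SCG2 and CPE were lower by less than 2-fold, and SCG5 and CHGA had too few counts. Of the 14309 genes whose mean over the libraries was 0.5 CPM or more, 3.97% were at least 2-fold higher in this pair. The lead gene was chosen on this contrast, so the count is a description and nothing is read from it. For CAY10603 against vehicle 0 of the 6 members at that level were at least 2-fold apart, against 1.4% of all genes in either direction. For shHDAC6 against shControl it was also 0 of 6, against 2.96%. The control libraries differed at least 2-fold in 1 member (PCSK1), against 5.7% of genes. Both inhibitor comparisons share the vehicle library. Against shControl, the same 4 members were at least 2-fold higher in ACY1215 (5.89% of genes), and VGF and PCSK1 were so in CAY10603 (2 of 6, against 3.92% of genes). With the level set at a mean of 5 CPM, only VGF, PCSK1N, SCG2 and CPE counted, and VGF reached it only through its value in ACY1215. At that level 2 of 4 were at least 2-fold apart for ACY1215 against vehicle (4.7% of 10738 genes), 0 of 4 for CAY10603 (0.27%) and 0 of 4 for shHDAC6 (0.689%).

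The inhibitor libraries were also set side by side. Without doses and times they are 2 values, not a comparison of the compounds. Between CAY10603 and ACY1215, VGF differed by a log2 value of -2.57, PCSK1 by -1.19 and CHGB by -1.05, which makes 3 members at least 2-fold lower in CAY10603, against 3.66% of genes. PCSK1N lay just inside 2-fold at -0.98 (-1.09 to -0.87). CPE was higher in CAY10603 by 0.40 and SCG2 by 0.11 (-0.14 to 0.37).

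The make-up of the granule transcripts differed between libraries when compared per length. CPE made up 70.1% of the summed FPKM of the 8 members in ACY1215 and between 87.0% and 91.8% in the other 4 libraries. VGF supplied 5.88% in ACY1215, 0.92% in CAY10603 and between 0.28% and 0.48% elsewhere. PCSK1N supplied 21.7% in ACY1215, where it stood at 43.98 FPKM, and between 5.51% and 10.3% elsewhere. Without CPE the members summed to 60.57 FPKM in ACY1215, 28.99 in CAY10603, 24.74 in shControl, 19.77 in vehicle and 18.35 in shHDAC6.

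**Figure D3:**
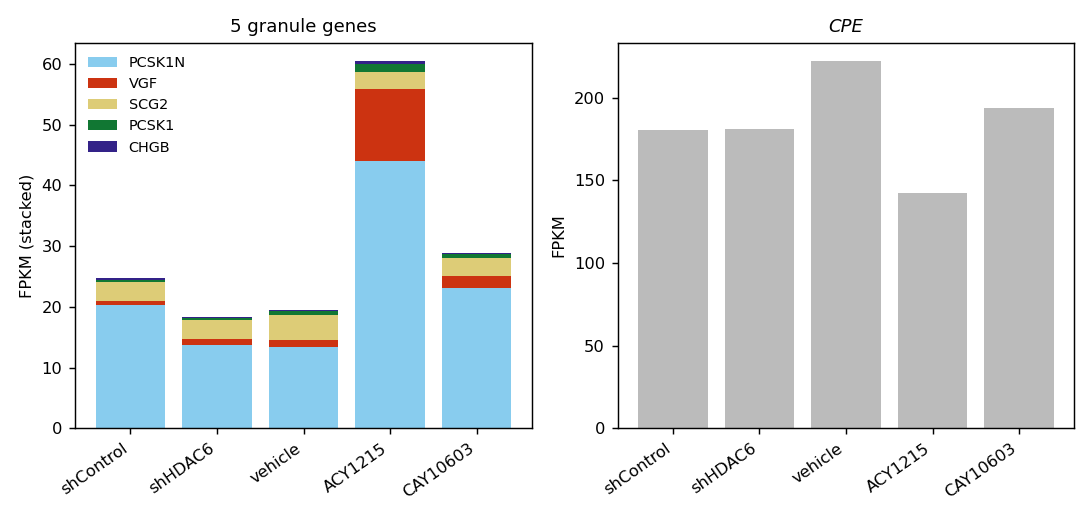
The authors' FPKM of 5 granule genes stacked (left) and of CPE (right) in the 5 libraries, each bar being a single library and each axis starting at 0. PCSK1N and VGF fill most of the taller ACY1215 bar, while the CPE bar is shortest in ACY1215 at 142.19 FPKM and tallest in vehicle at 222.2 FPKM.

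Taking the 3 interventions as one group with experiment type as a covariate, edgeR's quasi-likelihood test called 0 of 13449 genes (0%) at an adjusted p under 0.05, with 100 genes at an unadjusted p under 0.05. DESeq2 also called 0, with 112 at an unadjusted p under 0.05. The edgeR test called 4 genes without ACY1215. Leaving out vehicle or shControl keeps a single control library, and no count of genes is read from those fits. CHGB, SCG5 and CHGA were below the filter of 1 CPM in 2 libraries, and 5 members were fitted. The pooled log2 fold was 1.83 for VGF, given without an error because VGF was chosen on these same libraries. It was 0.62 for PCSK1 (SE 0.42), 0.54 for PCSK1N (SE 0.52), -0.29 for SCG2 (SE 0.23) and -0.19 for CPE (SE 0.18), each with an edgeR adjusted p of 1.00. With 1 library per treatment, the residual of this fit holds only differences between the hairpin and the compounds. These are not replicates, so the SE, the p and the 0 genes called do not measure replicate spread. Without ACY1215 the VGF fold was 0.78 and the PCSK1N fold 0.14. Without vehicle the drug libraries have no control of their own. With experiment type as a covariate, the fold is then that of shHDAC6 against shControl alone, not of the 3 interventions. In that fit it was 0.69 for VGF and -0.53 for PCSK1N. For PCSK1 the fold was 0.22 without ACY1215. For SCG2 it was -0.04 without vehicle. For CPE it was -0.08 without ACY1215 and -0.00 without vehicle.

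Other enzymes of prohormone processing are furin and its relatives, the amidating enzyme PAM and carboxypeptidase D (CPD), which also act in the general secretory pathway. Of 13 symbols listed, 8 reached a mean of 5 CPM, and 7 of the 8 were higher in ACY1215 than in vehicle with a median log2 fold of 0.35, against 0.00 over all 10738 genes at that level. None was 2-fold apart in any intervention pair, against 4.7% of all genes at that level for ACY1215, 0.27% for CAY10603 and 0.689% for shHDAC6. CPD had a log2 fold of 0.49, PAM 0.36 and FURIN 0.34 in ACY1215. In CAY10603 3 of 8 were higher (median -0.05), and in shHDAC6 3 of 8 (median -0.06). PCSK2, the other granule convertase, had at most 7 counts in a library.

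Genes of granule membrane and biogenesis showed smaller differences. Of 17 symbols 9 reached 5 CPM, with 8 higher in ACY1215 than in vehicle (median 0.11). None was 2-fold apart in that pair, against 4.7% of all genes at that level. HID1, needed for dense-core granule formation, had the largest log2 fold in ACY1215, 0.67. SCG3, which links granins to the granule membrane, had 11 counts in shControl and 13 in shHDAC6, then 34 in vehicle, 19 with ACY1215 and 30 with CAY10603. Its log2 fold was -0.99 (-1.96 to -0.21) for ACY1215 against vehicle, opposite to VGF, while vehicle was above shControl by 1.80 (0.98 to 3.13). The granule membrane protein PTPRN had 4 counts in ACY1215 and 0 elsewhere.

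Regulated exocytosis is the step at which a primed granule fuses with the plasma membrane through SNARE proteins. Of 39 listed genes, 21 reached a mean of 0.5 CPM, and in ACY1215 against vehicle 4 of the 21 were at least 2-fold higher and 2 at least 2-fold lower, with a median log2 fold of 0.18 against -0.01 for all genes at that level. The background was 3.97% higher and 4.9% lower. RAB3A, at 0.824 CPM in ACY1215, is among the 4 and reached the mean of 0.5 CPM only through that library. At a mean of at least 5 CPM only RAB3B, a small GTPase of secretory vesicles, was 2-fold apart. It stood at 21.2 CPM in shControl and 16.2 in shHDAC6, then 13.7 in vehicle, 59.0 with ACY1215 and 15.5 with CAY10603, a log2 fold of 2.10 in ACY1215 and 0.18 in CAY10603. The further genes named here lie below that level and were picked after their values were seen.

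UNC13A (Munc13-1), which primes vesicles for fusion, had 55 counts in shControl and 55 in shHDAC6, then 46 in vehicle, 965 with ACY1215 and 81 with CAY10603. Its log2 fold in ACY1215 was 4.11, above that of VGF, and the libraries other than ACY1215 lay between 0.95 and 1.67 CPM. SNAP25, a plasma membrane SNARE, had 44 counts in each shRNA library, 103 in vehicle, 538 in ACY1215 and 116 in CAY10603, a log2 fold of 2.14 in ACY1215. On the lower side SYT10, a synaptotagmin, had 265 counts in vehicle and 78 in ACY1215 (log2 fold -1.96), and the complexin CPLX1 had 44 and 23. The priming factor of granules CADPS had at most 4 counts in any library, and SYT4 at most 9. In CAY10603 none of the 21 genes was 2-fold apart from vehicle, and in shHDAC6 none from shControl, against 1.4% and 2.96% of all genes.

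**Figure D4:**
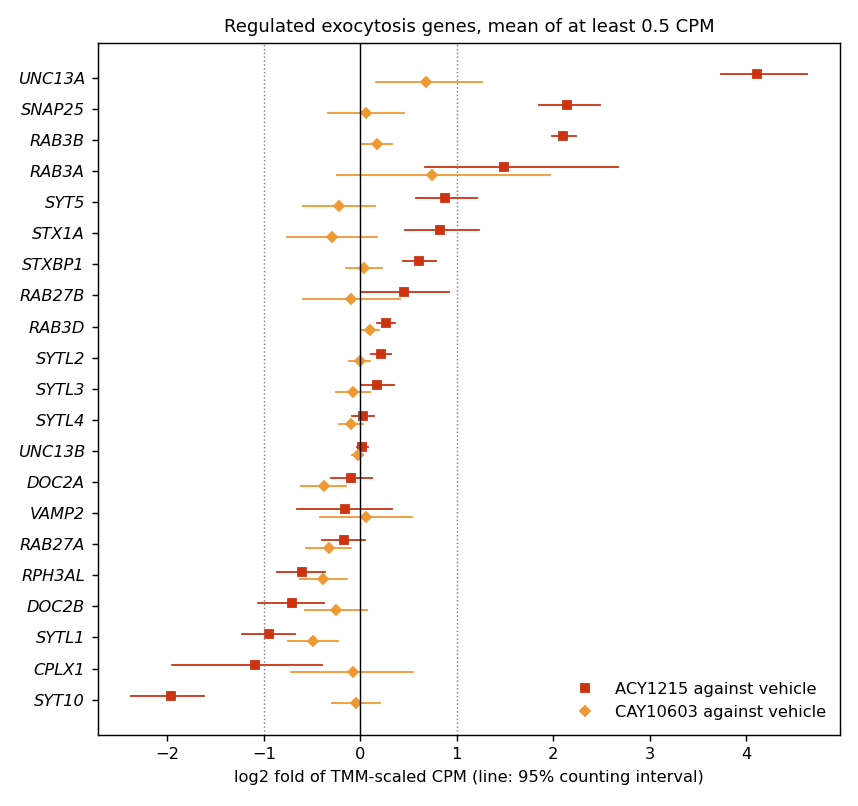
Log2 folds (horizontal axis) of the 21 regulated exocytosis genes at a mean of 0.5 CPM or more, for ACY1215 (squares) and CAY10603 (diamonds) against the same vehicle library, with lines for 95% counting intervals and dotted lines at 2-fold. UNC13A, SNAP25, RAB3B and RAB3A lie above 2-fold in ACY1215 and SYT10 and CPLX1 below, while no diamond passes a dotted line.

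Most peptide and hormone cargo genes had a mean below 0.5 CPM. Of 43 cargo genes, 10 reached a mean of 0.5 CPM and 5 reached 5 CPM. ADM, adrenomedullin, was the cargo gene with a 2-fold difference among these 5, at 4.23 CPM in vehicle and 10.7 in ACY1215 (log2 fold 1.33), but it stood at 9.85 CPM in shControl. That is 1 of 5, against 4.7% of all genes at that level in this pair. Of the 10 genes, 1 was at least 2-fold higher and 1 (NMB) at least 2-fold lower, against 3.97% and 4.9% of all genes. The neurotrophin BDNF had a log2 fold of 0.49 in ACY1215. All 5 cargo genes at a mean of 5 CPM were lower in shHDAC6 than in shControl, with a median of -0.36 against 0.00 over all genes at that level. Vehicle was also lower than shControl in 4 of the 5 (median -0.30), and against vehicle shHDAC6 was higher in 2 and lower in 3 (median -0.09).

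Other targets of CREB were read because VGF and PCSK1 hold its element. Of 18 CREB targets and cofactors found, 11 reached a mean of 5 CPM, of which 7 were lower in ACY1215 (median -0.27) and none was 2-fold apart. Of all genes at that level 4.7% were 2-fold apart for ACY1215 against vehicle. CREB1 had a log2 fold of -0.27, CREBBP of -0.53 and SIK1, a kinase induced by CREB, of -0.88. SIK1 was high in vehicle, at 120 CPM against 80.3 in shControl and 65.0 in ACY1215. NR4A2, another target, had 3.07 CPM in vehicle and 1.00 CPM in ACY1215, but 1.13 CPM in shControl. At a mean of 0.5 CPM or more, 6 of 17 were higher and 11 lower in ACY1215 than in vehicle. EGR1 (0.65) and FOS (0.26) were among the higher. NR4A2 was the 1 gene at least 2-fold lower, against 4.9% of all genes. Among genes with a promoter in the RefSeq table and a mean of 5 CPM or more, 355 of 8690 held a CRE. Of the 355, 6 (1.69%) were at least 2-fold higher in ACY1215 than in vehicle, against 1.55% of the 8690, and 15 (4.23%) were at least 2-fold lower, against 2.76%. The 6 include VGF, which was chosen for its value in ACY1215 and reached 5 CPM only through that library. Down to a mean of 1 CPM, where PCSK1 also counts, the shares higher were 3.54% of 396 genes and 2.99% of 10165. VGF and PCSK1 are among the higher genes there, so nothing is read from these shares.

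Transcripts of REST and its corepressors were abundant in every library. All 15 listed genes had a mean above 5 CPM and none was 2-fold apart in any of the 3 interventions. Of all genes at that level 0.689% were so for shHDAC6, 4.7% for ACY1215 and 0.27% for CAY10603, so 0 of 15 lies near these shares. REST stood at 141 CPM in both vehicle and ACY1215, 154 CPM in CAY10603, 155 in shControl and 125 in shHDAC6. In ACY1215 12 of 15 were lower than in vehicle (median -0.06), RCOR2 by the most (-0.73). HDAC1 and HDAC2, the class I deacetylases of the complex, had -0.05 and 0.23.

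Markers of neuroendocrine cells and neurons were read beside the granule genes. The neuroendocrine factors NEUROD1 and INSM1 had at most 5 counts in any library. The 16 neuroendocrine markers summed to between 113 CPM (shControl) and 139 CPM (ACY1215), most of it POU3F2 and ENO2, and 7 of them were below 0.5 CPM in every library. Of the 8 at a mean of 0.5 CPM or more, 6 were higher and 2 lower in ACY1215 than in vehicle, and 2 were at least 2-fold higher, against the 3.97% of genes given above. POU3F2, the most abundant, was lower (log2 fold -0.32). Of the 2 that were 2-fold higher, synaptophysin, SYP, had 122 counts in ACY1215 against 36 in vehicle, and the adhesion molecule NCAM1 had 171 against 23, reaching the mean of 0.5 CPM only through ACY1215. The 17 neuron markers summed to 512 CPM in ACY1215, 263 in vehicle, 300 in CAY10603, 468 in shHDAC6 and 550 in shControl, and 10 were below 0.5 CPM throughout. Most of each sum was TUBB3, L1CAM and INA, at 319, 116 and 64.2 CPM in ACY1215. L1CAM, an axonal adhesion molecule, was 116 CPM in ACY1215 and 36.4 in vehicle (log2 fold 1.67), but 78.2 in shControl. The part of these markers in the granule values was not tested. EPCAM, an epithelial adhesion molecule on the carcinoma list, was 29.6 CPM in ACY1215 and 59.5 in vehicle (log2 fold -1.01).

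The genes most like VGF were ranked by the Euclidean distance between log2 CPM profiles centred on their own mean over the 5 libraries, among 10737 other genes at a mean of 5 CPM or more. The nearest were CLGN, a chaperone of the endoplasmic reticulum (distance 1.28), the urokinase receptor PLAUR (1.35), the receptor kinase EPHB2 (1.57), the zinc finger protein ZNF516 (1.71) and TMEM170B (1.84). All 5 were high in ACY1215, which the choice of VGF for its value there sets, and CLGN, PLAUR and ZNF516 reached the mean of 5 CPM only through that library. Their log2 folds over vehicle lay between 1.92 (TMEM170B) and 2.45 (PLAUR). All 5 were slightly lower in shHDAC6 than in shControl (log2 folds -0.16 to -0.45), where VGF was higher. None of the 5 was among the nearest by Pearson correlation, or once genes down to a mean of 1 CPM were ranked, where UNC13A was among the nearest 5. At that lower level PCSK1 ranked 68 of 13243 (distance 1.85) and PCSK1N 174 (2.31). SCG2 ranked 9737 (3.64) and CPE 10583 (3.71), farther from VGF than most genes.

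**Figure D5:**
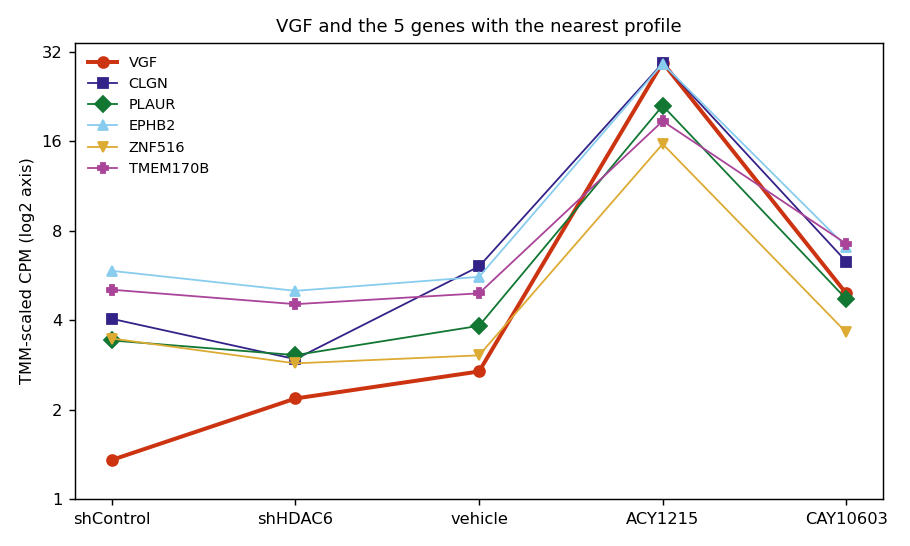
TMM-scaled CPM (vertical log2 axis) of VGF and of the 5 genes with the nearest centred profile in the 5 libraries, with lines that only join the points of a gene. All 6 genes peak in ACY1215, and VGF alone is higher in shHDAC6 than in shControl.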

How the data were processed

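Per the labels' protocols, Trizol RNA of TOV21G cells went into a strand-specific library kit for total RNA. The authors deposited expected counts per gene as whole numbers, headed count, and FPKM values with 2 decimals, per the file headers. RSEM 1.2.3, edgeR and the build hg19 are named in the submitters' processing notes without a role. No source used here gives the aligner, the annotation or the strand setting. A column is headed DMSO, a common solvent, and was read as the 1 vehicle library. The table has 2 blank rows, which were left out.

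Counts were scaled by TMM in edgeR 4.0.16 (R 4.3.3), with a prior count of 2 in log2 folds. Pairs hold 1 library each side and carry no test. Ratio intervals are exact binomial. The pooled test was a robust quasi-likelihood fit with experiment type as a covariate (2 residual degrees of freedom, Benjamini-Hochberg over all genes tested), checked on simulated data. The SE given for a pooled fold is its absolute value divided by the square root of the test's F statistic. Alternatives were DESeq2 1.42.0, RLE factors, library totals, another prior, FPKM plus 0.1, no filter, no covariate, the other control and leaving out each library. Members and lists were chosen with earlier results of these data known, and the 0.5 CPM level was set with the members' values in view. Named genes are the members, HDAC6, up to 4 genes per list with a mean of at least 5 CPM and the largest absolute fold if at least 2-fold, and the 5 genes nearest VGF; others named were picked for their role or after their values were seen. Promoter windows were scripted from the RefSeq table. Some genes of the lists and neighbourhoods are not reported here.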

Additional observations from a re-analysis of the deposited data

Results flagged for a closer look

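PCSK1N differed in sign between the kinds of experiment. Its log2 fold was -0.53 for shHDAC6 against shControl, while it was 1.81 for ACY1215 and 0.84 for CAY10603 against vehicle, and no counting interval included 0. The difference between the drug and hairpin effects, fitted as an interaction in edgeR, was 1.94 (1 residual degree of freedom). That residual is the gap between ACY1215 and CAY10603, which are different compounds and not replicates, so the fit cannot test the difference. PCSK1N was also picked here for its signs in these same libraries. The difference was in the same direction for both drug libraries, and no test is read from it. The control libraries differed by -0.63 in the same gene, and against vehicle the shHDAC6 value was 0.11.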

How the results depend on the processing

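The count of members at least 2-fold apart was 4 for ACY1215 against vehicle, 3 with FPKM and 2 at a floor of 5 CPM, where fewer members count. For CAY10603 against vehicle it was 0, and 2 with shControl in place of vehicle (VGF and PCSK1) or with no floor on the level. Between CAY10603 and ACY1215 it was 3, 2 with library totals or FPKM, 4 with no floor and 1 at a floor of 5 CPM. Between the controls it was 1, and 2 with library totals or no floor, and 0 with RLE factors, with FPKM or at a floor of 5 CPM. For shHDAC6 it was 0 under every alternative run. Of 32 settings of single 2-fold values under another scaling, prior count or FPKM, 27 stayed at least 2-fold in the same direction, and 5 were less than 2-fold (3 of CHGB, 2 of PCSK1). With the other control 15 of 18 member folds moved outside their counting interval. The pooled count of genes was 4 without ACY1215 and 0 under the other alternatives that kept both control libraries. Fits that kept a single control library are not counted here. No paired analysis was possible because the labels carry no replicate numbers, and those used here only name the libraries. The 5 CPM floor and the setting with no floor were added after seeing the data. Below 0.5 CPM the depth gave at most 12 counts for SCG5 and 2 for CHGA.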
